A study of Mus musculus with 4 samples.

Results

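The genes described are 36 genes of the lysosome: enzymes of the lumen and the proteins that help them, proteins of the limiting membrane, subunits of the proton pump, and the transcription factors Tfeb and Tfe3. They were taken as a named list, without the cathepsins, from the 39179 genes in the count files, and all 36 were found there by symbol. All 36 passed the filter on low counts, with 312 to 268207 counts in a library, so no member was left out. The rule for the list names genes and uses no measured value, but the list was chosen with earlier results of these data known.

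The cells were sorted as tumour macrophages from FVB mice that carried a subcutaneous tumour, and their RNA was sequenced in bulk. In the control group the tumours came from MycCaP, a mouse prostate cancer cell line made from a tumour driven by a MYC transgene. In the other group they came from MycCaP-BMP4, the same line made to overexpress BMP4, a secreted bone morphogenetic protein. Cells were sorted for CD45, CD11b and F4/80 and against GR1, a gate for tumour macrophages. Each group had 2 libraries, and all values below are given in the order MycCaP replicates 1 and 2, then MycCaP-BMP4 replicates 1 and 2. F4/80 stands in the sample titles of the MycCaP-BMP4 group alone, although both groups are described with the same gate. The labels do not give the age or sex of the mice, the way BMP4 was introduced, or whether the samples came from separate mice. The spread behind each p-value is therefore that of these 4 libraries, and it may be technical.

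The lysosome is the acid compartment in which a cell breaks down what it has taken up. Its V-ATPase pumps protons inward, its hydrolases work at that acid pH, and heavily glycosylated proteins line its membrane. Macrophages are rich in lysosomes, since they digest dead cells and matrix. TFEB and TFE3 are transcription factors of the MiT family that bind E-box sequences near the starts of many lysosomal genes.

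The E-box CACGTG was looked for on both strands of RefSeq promoter windows (GRCm38.p6), which run from 250 bases before to 50 bases after a gene's start. Of the 36 genes, 32 had a window. CACGTG was present in 10 of 32 (31.25%), against 8.09% of all 27025 genes with a window. The longer TCACGTGA, the core of the element bound by TFEB, was present in 4 of 32 (12.5%, against 1.12% of all genes). GTCACGTG or its reverse complement CACGTGAC, which overlap the other motifs and were searched after the data had been seen, were present in 9 of 32 (28.1%, against 2.55%). Lamp1 held 4 copies of CACGTG, and Gla, Mcoln1 and Atp6v0b held 2 each. A stretch of 30 bases around 1 copy is shown for each of the 10 genes, because they are the members whose window holds the E-box. Capitals mark CACGTG and the bases beside it that match the longer motifs, and each stretch reads 5′ to 3′ on the strand of the gene.
Gla (chrX:134601182-134601211, minus strand): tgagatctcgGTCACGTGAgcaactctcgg
Mcoln1 (chr8:3500462-3500491, plus strand): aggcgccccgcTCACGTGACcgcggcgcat
Atp6v0d1 (chr8:105566050-105566079, minus strand): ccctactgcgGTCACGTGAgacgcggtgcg
Atp6v1a (chr16:44139373-44139402, minus strand): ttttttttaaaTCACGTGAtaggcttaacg
Lamp1 (chr8:13159121-13159150, plus strand): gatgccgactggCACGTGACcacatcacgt
Lgmn (chr12:102439124-102439153, minus strand): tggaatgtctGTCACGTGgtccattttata
Glb1 (chr9:114401018-114401047, plus strand): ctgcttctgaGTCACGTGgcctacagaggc
Naglu (chr11:101070009-101070038, plus strand): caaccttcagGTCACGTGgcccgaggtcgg
Arsa (chr15:89477423-89477452, minus strand): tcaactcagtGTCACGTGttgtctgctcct
Atp6v0b (chr4:117887348-117887377, minus strand): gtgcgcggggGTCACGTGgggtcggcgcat

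The libraries held 23058263 to 24967143 counts in genes, and 3 counts, used as a floor, were worth 0.120 to 0.130 CPM, the count of a gene scaled to a fixed number of gene counts in each library. Values in CPM below are scaled on all genes with TMM factors, and the floor, which has no such factor, covers counting error only. The sorted cells carried macrophage RNA, but in unequal amounts. The 16 pan-macrophage marker genes summed to 33428 and 29337 CPM in the MycCaP libraries and to 6679 and 24516 CPM in the MycCaP-BMP4 libraries. Relative to the MycCaP mean, their median was 19.6% in MycCaP-BMP4 replicate 1 and 73.9% in replicate 2. In these bulk samples fewer macrophages and less RNA per macrophage cannot be told apart. Tumour epithelial markers summed to 112 and 144 CPM against 787 and 310 CPM, with 5 of the 7 tested, of 11 listed, higher in both MycCaP-BMP4 libraries (28.9% of all genes were) and 1, Cdh1, lower in both (29.7%). Epcam, Krt18 and Cldn7 had 0 to 14 counts in a library, with 0 in MycCaP-BMP4 replicate 1. Markers of osteoblasts and cartilage summed to 19.5 and 28.9 CPM against 144 and 80.5 CPM, with 5 of the 6 tested, of 8 listed, higher in both. T and NK cell markers summed to 45.8 and 36.4 CPM against 3.404 and 7.205 CPM, with 5 of 6 lower in both. Mast cell markers summed to 6.34 and 15.2 CPM against 16.8 and 30.8 CPM, with 3 of 4 higher in both. The other, Kit, was lower in both, with 3.94 and 4.90 CPM against 1.85 and 2.28 CPM. Reads on lines that name no gene were 14.9% and 14.6% of the total in MycCaP and 19.4% and 18.1% in MycCaP-BMP4 libraries, of which reads in no annotated feature were 3.98% and 3.37% against 6.01% and 6.03%. These values differed between the groups, but not all of them set MycCaP-BMP4 replicate 1 apart. Reads in no annotated feature were alike in both MycCaP-BMP4 libraries, and the sum of mast cell markers was highest in replicate 2. The part of these values in the differences below was not tested.

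The median of the lysosomal genes was lower in MycCaP-BMP4 replicate 1 and close to the control level in replicate 2. The 36 genes took 2.95% and 2.81% of gene counts in the MycCaP libraries, 1.18% in MycCaP-BMP4 replicate 1 and 2.44% in replicate 2. Their share was thus below both MycCaP shares in replicate 2 as well. Relative to the MycCaP mean, the median of the 36 genes was 45.9% in replicate 1, where 35 of 36 lay below that mean and 20 below 50% of it (log2 under -1). Of all 14075 genes tested, 7324 lay below it there, leaving out genes without a count in that library. In replicate 2 the members' median was 94.0%, no member was below 50%, and 22 of 36 lay within 0.25 log2 units of the mean. Over all genes tested the medians were 95.9% in replicate 1 and 98.7% in replicate 2. Replicate 1 was the lower of the MycCaP-BMP4 libraries for 34 of 36 genes, by a median of 0.95 log2 units. The MycCaP libraries differed from each other by a median of 0.13 log2 units and by at most 0.44.

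No lysosomal gene passed the test across all genes. With p adjusted by Benjamini-Hochberg, the quasi-likelihood test of edgeR called 0 of 36 members and 0 of 14075 genes (0%) at an adjusted p under 0.05, and the adjusted p of the members ran from 0.198 to 0.994. At an unadjusted p under 0.05 the same test had 2 members lower, Scarb2 and Arsb, and 0 higher, beside 6.76% of all genes lower and 12.3% higher. DESeq2 called 0 members, while it called 3.01% of all genes lower and 6.83% higher. With 2 libraries against 2, an exact two-sided permutation test of a single gene cannot go below p = 0.333. Both MycCaP-BMP4 libraries lay below both MycCaP libraries for 18 of 36 members (50%), against 29.7% of all genes tested. Both lay above for 1 member, Smpd1 (2.78%, against 28.9%). The median log2 fold change of the members was -0.46, and that of all genes tested was -0.03. Leaving out single libraries moved these counts. With MycCaP-BMP4 replicate 1 left out, the members' median was -0.09 and edgeR called 0 members (2.63% of all genes lower and 4.48% higher). Then 19 members were lower than both MycCaP libraries (39.4% of all genes) and 9 higher (38.8%). With MycCaP-BMP4 replicate 2 left out, the members' median was -1.10 and 26 members were lower past the threshold (20.2% of all genes lower and 18.5% higher), with 34 below both MycCaP libraries (44.8%) and 1 above (42.4%). Without MycCaP replicate 1, 19 members were lower in both MycCaP-BMP4 libraries (36.9%) and 1 higher (37.6%). Without MycCaP replicate 2, 26 were lower (38.7%) and 1 higher (37.7%).

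**Figure D1:**
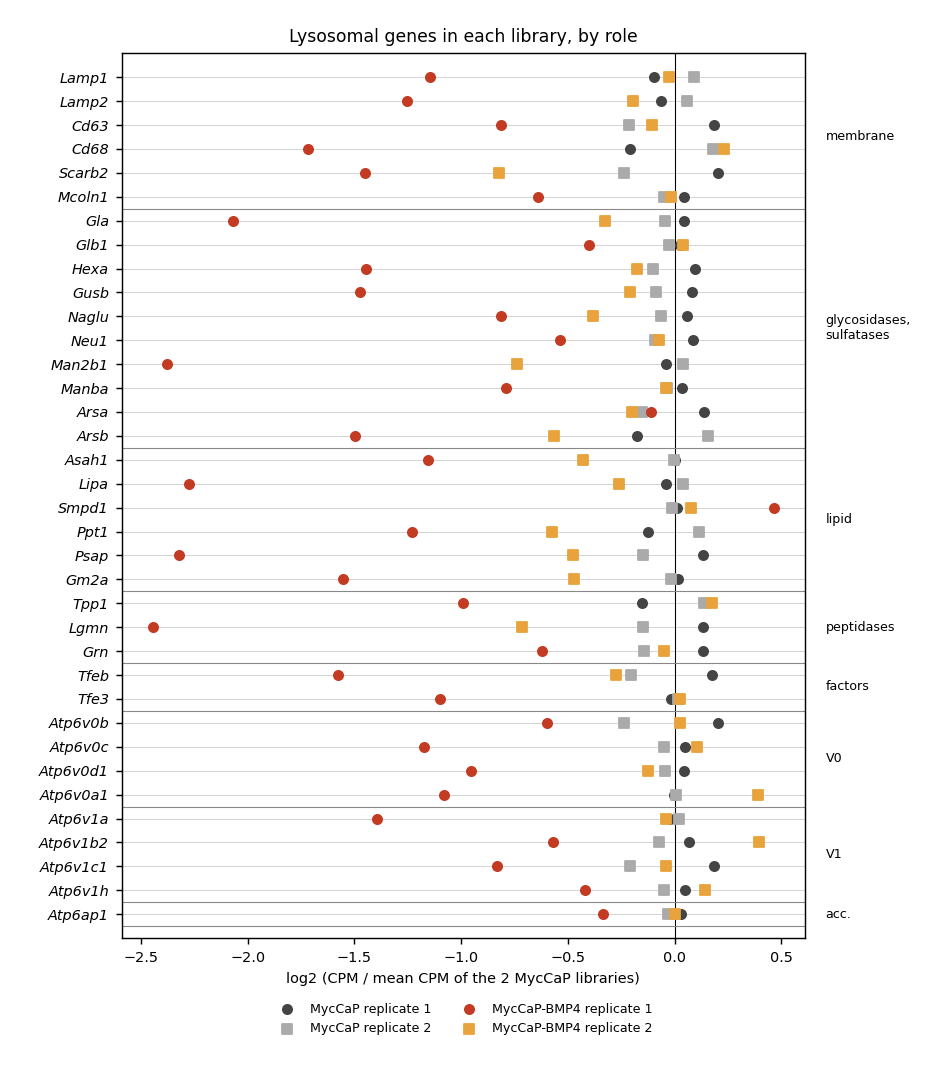
Each row is 1 of the 36 genes and each point 1 library, plotted as log2 of CPM over the mean CPM of the MycCaP libraries, with the genes grouped by role. MycCaP-BMP4 replicate 1 (red) lies left of the other libraries for most genes, while replicate 2 (orange) lies within 0.25 log2 units of the MycCaP mean for 22 of 36.

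Genes of lysosomal lipid breakdown included the most abundant member, and their groups did not overlap for any of the 6. In both MycCaP-BMP4 libraries 5 of its 6 genes were below the controls and 1 was above (median log2 fold change -0.89), where 29.7% of all genes tested were below and 28.9% above. Psap encodes prosaposin, the precursor of the saposins, which present sphingolipids to their hydrolases (chromosome 10, 60277627 to 60302597 on GRCm38). Psap had 11733 and 9673 CPM in the MycCaP libraries and 2141 and 7704 CPM in the MycCaP-BMP4 libraries. Every MycCaP-BMP4 value was below every MycCaP value, and replicate 1 was the lowest. On the log2 scale the fold change of Psap came to -1.12 ± 0.81 (SE; edgeR adjusted p = 0.482).

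Lipa, the acid lipase that splits cholesteryl esters and triglycerides, had the widest gap between the MycCaP-BMP4 replicates of all members. It had 725 and 764 CPM against 154 and 621 CPM, a gap of 2.01 log2 units. Gm2a, the activator that lifts GM2 ganglioside to hexosaminidase, had 561 and 548 CPM against 189 and 400 CPM. Asah1, the acid ceramidase, had 459 and 458 CPM against 206 and 340 CPM. Ppt1, which removes palmitate from proteins, had 382 and 452 CPM against 178 and 280 CPM (log2 fold change -0.87 ± 0.37, SE; edgeR adjusted p = 0.277). For these 4 genes the groups did not overlap, and MycCaP-BMP4 replicate 1 was the lowest library each time. Exons of Ppt1 overlap Cap1 on the opposite strand, which had 266 to 729 CPM, and reads of the 2 genes can be told apart only if strand was used in counting.

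Smpd1, which encodes acid sphingomyelinase, went the other way, though only slightly in replicate 2. Relative to the MycCaP mean it stood at 138% in MycCaP-BMP4 replicate 1 and 105% in replicate 2. It had 33.6 and 33.1 CPM in the MycCaP libraries and 46.0 and 35.1 CPM in the MycCaP-BMP4 libraries. The means were 33.3 ± 0.32 CPM (SD, n = 2) and 40.6 ± 7.69 CPM (SD, n = 2). The difference of 0.28 ± 0.26 (SE) on the log2 scale had an edgeR adjusted p of 0.575. It was the 1 member above the MycCaP mean in MycCaP-BMP4 replicate 1.

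Glycosidases take sugars off glycoproteins, glycolipids and matrix chains, and sulfatases remove sulfate from them. In both MycCaP-BMP4 libraries 7 of the 10 such genes were below the controls and 0 above (median log2 fold change -0.63), against 29.7% and 28.9% of all genes. Man2b1, the lysosomal alpha-mannosidase (chromosome 8, 85083270 to 85098282), had the lowest log2 fold change of all 36 genes, at -1.34 ± 0.60 (SE; edgeR adjusted p = 0.298). It had 999 and 1058 CPM against 197 and 616 CPM, so that both MycCaP-BMP4 libraries were low, at 19.2% and 59.9% of the MycCaP mean. Arsb, the sulfatase that acts on dermatan sulfate, was also low in both, with 131 and 164 CPM against 52.3 and 99.9 CPM. Its log2 fold change was -0.96 ± 0.38 (SE; edgeR adjusted p = 0.260).

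Like Man2b1 and Arsb, other enzymes of this kind were lower in MycCaP-BMP4 replicate 1 than in replicate 2. Gla, the alpha-galactosidase whose promoter stretch with TCACGTGA is shown above, had 196 and 184 CPM against 45.2 and 151 CPM. Hexa, the alpha subunit of hexosaminidase, had 1102 and 962 CPM against 378 and 913 CPM. Gusb, the beta-glucuronidase, had 699 and 624 CPM against 238 and 573 CPM. In replicate 2 these 3 genes stood at 79.8% to 88.5% of the MycCaP mean, below both MycCaP libraries. Naglu, which acts on heparan sulfate, had 132 and 122 CPM against 72.3 and 97.4 CPM, and Manba, the beta-mannosidase, had 82.5 and 78.7 CPM against 46.6 and 78.3 CPM. The groups were separate for both, for Manba by less than the gap between the MycCaP libraries.

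For Glb1, Neu1 and Arsa the groups overlapped. Glb1, the acid beta-galactosidase used as a marker of lysosomal mass, had 137 and 132 CPM against 102 and 138 CPM. The sialidase gene Neu1 had 186 and 164 CPM against 121 and 166 CPM. Arsa, the sulfatase for sulfatide, had 83.9 and 68.6 CPM against 70.7 and 66.4 CPM. It stood at 92.8% and 87.1% of the MycCaP mean and was, with Smpd1, 1 of 2 members whose MycCaP-BMP4 replicate 1 value was not below replicate 2. The exons of Glb1 overlap Tmppe on the same strand, which had 14.4 to 23.5 CPM, so reads shared by both genes are not in these counts.

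The peptidases and progranulin did not move alike. Lgmn encodes legumain, an endopeptidase that cuts after asparagine and activates other lysosomal proteases (chromosome 12, 102394084 to 102439813). It had 4059 and 3337 CPM in the MycCaP libraries and 679 and 2255 CPM in the MycCaP-BMP4 libraries. At 18.4% of the control mean it was the lowest of all members in MycCaP-BMP4 replicate 1, and at 61.0% it was low in replicate 2 as well. The log2 fold change was -1.33 ± 0.69 (SE; edgeR adjusted p = 0.349).

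Grn, the progranulin gene, whose product is carried to the lysosome in part with prosaposin, had 3054 and 2521 CPM against 1814 and 2692 CPM. Tpp1, a peptidase that trims tripeptides from protein ends, had 309 and 378 CPM against 173 and 388 CPM. For both genes the groups overlapped, because MycCaP-BMP4 replicate 2 lay within or above the MycCaP values. As shares of the members' counts, Psap went from 36.5% and 33.4% in the MycCaP libraries to 20.6% and 31.1%, and Lgmn from 12.6% and 11.5% to 6.54% and 9.11%. Grn went from 9.49% and 8.71% to 17.5% and 10.9%.

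Membrane proteins of the lysosome were compared next, and 2 of 6 were below the controls in both MycCaP-BMP4 libraries with 0 above (median log2 fold change -0.46). The share below, 33.3%, was near the 29.7% of all genes, and 28.9% of all genes were above. Scarb2, also called LIMP-2, carries glucocerebrosidase to the lysosome (chromosome 5, 92441314 to 92506833). It had 232 and 171 CPM against 73.9 and 114 CPM. Its p was the smallest of all members, with a log2 fold change of -1.10 ± 0.35 (SE; edgeR unadjusted p = 0.0206, adjusted p = 0.198). At 56.6% of the MycCaP mean, Scarb2 was also the lowest of the 36 genes in MycCaP-BMP4 replicate 2. Lamp2, a glycoprotein that lines the membrane and serves autophagy, had 760 and 827 CPM against 333 and 693 CPM.

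The remaining membrane genes overlapped between the groups. Lamp1, the partner of Lamp2 and the most abundant of the membrane genes, had 2094 and 2389 CPM against 1012 and 2202 CPM. Its mean was 2242 ± 209 CPM (SD, n = 2) in the MycCaP and 1607 ± 841 CPM (SD, n = 2) in the MycCaP-BMP4 libraries. These means differed by less than the SD of the MycCaP-BMP4 pair. Cd68, a mucin-like lysosomal protein used as a macrophage marker, had 675 and 883 CPM against 237 and 914 CPM. Its value was the lowest of the 4 libraries in MycCaP-BMP4 replicate 1 and the highest in replicate 2. The tetraspanin gene Cd63 had 983 and 745 CPM against 492 and 804 CPM. Mcoln1, the calcium channel of the lysosome, had 41.4 and 38.8 CPM against 25.7 and 39.7 CPM. Cd63 has a pseudogene copy, Cd63-ps, with 112 to 152 counts in a library, a small number beside those of Cd63 itself.

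**Figure D2:**
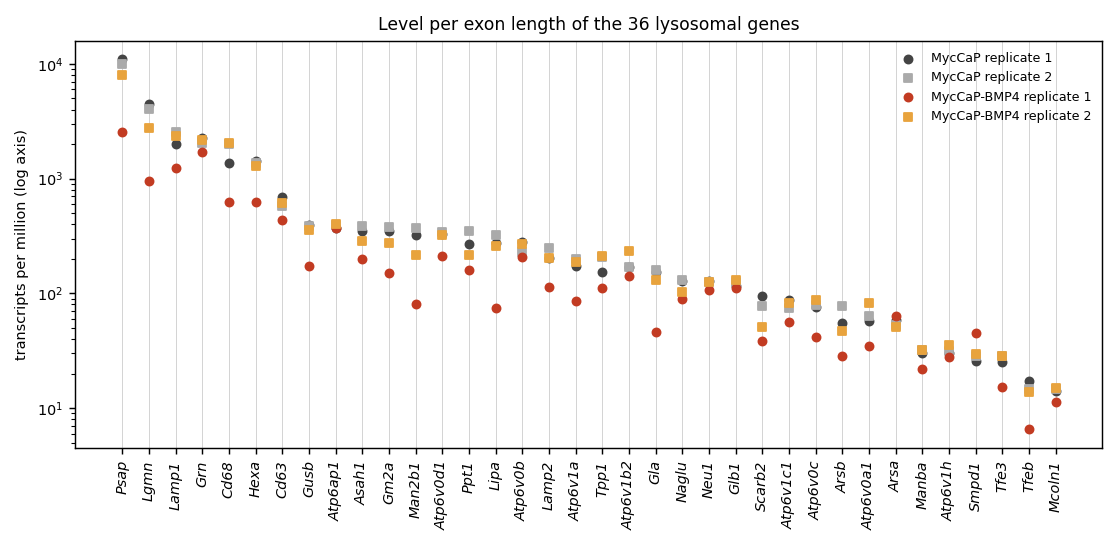
TPM values, counts divided by exon length and scaled to 1 sum per library, are plotted on a log axis for the 36 genes in each library, ordered by the mean of the MycCaP libraries. Psap is highest in all 4 libraries, and Tfeb and Mcoln1 are lowest.

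Per exon length, as TPM, in which counts are divided by exon length and scaled to the same sum in each library, without TMM factors, the order of the members' levels differed little between libraries at its ends. Psap ranked first of the 36 in all 4 libraries, with 10495 TPM as the MycCaP mean. Lgmn ranked second in 3 libraries and at place 4 in MycCaP-BMP4 replicate 1, where Grn and Lamp1 stood above it. The MycCaP means that followed were 4283 TPM for Lgmn, 2273 TPM for Lamp1, 2159 TPM for Grn, 1686 TPM for Cd68 and 1394 TPM for Hexa. Lamp1 and Grn did not differ beyond their spread in the MycCaP libraries, since they changed places between the replicates (2009 and 2538 TPM against 2256 and 2062 TPM). Tfeb and Mcoln1 took the last 2 ranks in each library, with MycCaP means of 15.97 and 14.3 TPM. Man2b1 and Lipa moved furthest down among the members in MycCaP-BMP4 replicate 1, from ranks 13 and 12 for Man2b1 and rank 15 for Lipa in the MycCaP libraries to ranks 22 and 23.

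The medians of the proton pump lay nearer to the control level than those of the enzymes in both MycCaP-BMP4 libraries. The V-ATPase has a membrane part, V0, through which protons pass, and a cytosolic part, V1, which splits ATP. The median of its 9 members was 56.2% of the control mean in MycCaP-BMP4 replicate 1 and 102% in replicate 2, while the 19 lumenal enzymes and cofactors stood at 42.7% and 83.4%. These 2 groups of members were not tested against each other. Both MycCaP-BMP4 libraries were below the controls for 2 of the 9 genes and above them for 0 (median log2 fold change -0.25). The share below, 22.2%, was under the 29.7% of all genes, and 28.9% of all genes were above. The 9 genes took 0.202% and 0.198% of gene counts in the MycCaP libraries and 0.143% and 0.223% in the MycCaP-BMP4 libraries.

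In V1, Atp6v1a encodes the catalytic subunit A and had 409 and 422 CPM against 158 and 405 CPM. Atp6v1b2, the B subunit that pairs with it, had 352 and 319 CPM against 226 and 442 CPM. Of the 36 genes Atp6v1b2 was the highest relative to the controls in MycCaP-BMP4 replicate 2, at 132% of the MycCaP mean, and its log2 fold change was -0.01 ± 0.42 (SE; edgeR adjusted p = 0.994). The stalk gene Atp6v1c1 had 192 and 147 CPM against 95.3 and 165 CPM. Atp6v1h, a regulatory subunit, had 114 and 107 CPM against 82.7 and 122 CPM. Among these 4 genes the groups were separate only for Atp6v1a, and MycCaP-BMP4 replicate 2 lay just under its lower MycCaP value.

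In V0, Atp6v0d1, which couples the parts and whose promoter stretch with TCACGTGA is shown above, had 232 and 218 CPM against 116 and 206 CPM. It was the 1 V0 member whose groups did not overlap. Atp6v0a1, an a subunit that lines the proton path, had 146 and 147 CPM against 69.3 and 192 CPM. Atp6v0b, a proteolipid of the rotor ring, had 223 and 164 CPM against 128 and 197 CPM, and Atp6v0c, the main proteolipid, had 99.96 and 93.3 CPM against 42.8 and 104 CPM. Values of Atp6v0c are uncertain, since a near copy, Atp6v0c-ps2, had 2089, 2766, 1407 and 3285 counts in the 4 libraries, similar to the gene's own 1183 to 2365 counts. The accessory gene Atp6ap1, which helps to assemble the pump, had 435 and 417 CPM against 338 and 426 CPM. At 79.4% of the MycCaP mean, it was the least reduced pump member in MycCaP-BMP4 replicate 1.

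Genes of other pump subunits were listed separately. Of 16, 11 were tested, 4 were below the controls in both MycCaP-BMP4 libraries and 0 above, and the median log2 fold change was -0.19, with 0 called. The share below, 36.4%, was near the 29.7% of all genes, and 28.9% of all genes were above. Atp6v0d2, a d subunit found in osteoclasts and some macrophages, stood out by 1 library. It had 28.3 and 25.0 CPM in the MycCaP libraries, 25.5 CPM in MycCaP-BMP4 replicate 1 and 128 CPM in replicate 2 (log2 fold change 1.52 ± 0.71, SE; edgeR adjusted p = 0.313). Per exon length Atp6v0d2 was 8.05% and 7.58% of Atp6v0d1 in the MycCaP libraries and 14.5% and 40.9% in the MycCaP-BMP4 libraries. Without MycCaP-BMP4 replicate 2 its log2 fold change turned to -0.04. Tcirg1, the a subunit of osteoclasts and macrophages, had 292 and 262 CPM against 123 and 362 CPM, and was 2.53 to 2.84 times as high per exon length as Atp6v0a1 in each library. Of the 5 osteoclast markers, Acp5 had 300 and 328 CPM against 197 and 442 CPM. Dcstamp had 8.84 and 6.71 CPM against 6.12 and 20.4 CPM, so both were highest in MycCaP-BMP4 replicate 2. Ocstamp, with 3.28 and 5.19 CPM against 3.87 and 2.50 CPM, was lowest there. Oscar stayed at or under 0.869 CPM, and Calcr had no count in 3 libraries.

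**Figure D3:**
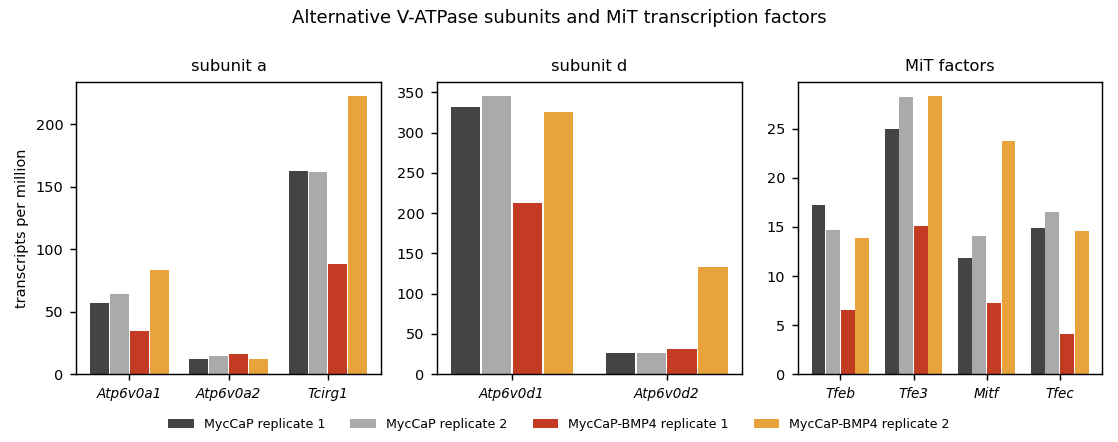
Bars give TPM in each library for 3 genes of V-ATPase subunit a, 2 of subunit d and 4 MiT transcription factors, with an axis from 0 in each panel. Atp6v0d2 is high in MycCaP-BMP4 replicate 2 alone, and MycCaP-BMP4 replicate 1 is the lowest library for all 4 MiT factors.

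Tfeb and Tfe3, which are among the transcription factors that bind the E-box, were low beside the other members. Per exon length, Tfe3 ranked 33 or 34 and Tfeb 35 or 36 of the 36 in each library. Tfeb (chromosome 17, 47737030 to 47792419) had 38.1 and 29.3 CPM in MycCaP macrophages and 11.3 and 27.9 CPM in MycCaP-BMP4 macrophages, a log2 fold change of -0.78 ± 0.47 (SE; edgeR adjusted p = 0.405). Its MycCaP-BMP4 values lay below both MycCaP values, with replicate 2 close to the nearer one. Tfe3 had 90.3 and 92.1 CPM against 42.5 and 92.8 CPM, with overlap between the groups. The related Mitf had 28.6 and 30.6 CPM against 13.6 and 52.1 CPM, and Tfec, found mainly in macrophages, had 32.4 and 32.6 CPM against 6.92 and 28.8 CPM. Their protein levels and their place in the cell, through which these factors are mainly regulated, were not measured. The 10 members with CACGTG in their promoter window had a median log2 fold change of -0.48, with 5 lower in both MycCaP-BMP4 libraries. The 22 without had -0.53, with 12 lower, where 29.7% of all genes tested were lower in both.

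Among the 17 genes of MiT factors and nutrient sensing, 6 lay lower and 2 higher in both MycCaP-BMP4 libraries, and none passed edgeR's test. These were 35.3% and 11.8% of the list, beside 29.7% and 28.9% of all genes. The 2 were Gpnmb and Rragb, which were also the 2 that DESeq2 called, both higher, as it did 6.83% of all genes. Gpnmb, a membrane glycoprotein gene induced by MiT factors in macrophages and also expressed by bone and pigment cells, had 48.4 and 57.1 CPM against 541 and 199 CPM (log2 fold change 2.81 ± 0.54, SE; edgeR adjusted p = 0.133, DESeq2 adjusted p = 4.53e-06). Rragb, a GTPase gene of the lysosomal nutrient sensor, had 4.11 and 4.31 CPM against 27.3 and 9.84 CPM. In both, MycCaP-BMP4 replicate 1 was the highest library, the reverse of its place for most members.

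Hydrolases and cofactors outside the list were placed much as the members were. Of 25 tested, 14 were lower in both MycCaP-BMP4 libraries and 1, the galactosylceramidase gene Galc, higher, and the median log2 fold change was -0.56 with 0 called. The lower share was 56% and the higher 4%, beside 29.7% and 28.9% of all genes. Fuca1, the alpha-fucosidase, had 195 and 171 CPM against 85.3 and 115 CPM, and Aga, which splits sugar from asparagine, had 27.9 and 20.1 CPM against 4.74 and 14.2 CPM. Of 21 tested genes of other membrane proteins and transporters, 7 (33.3%) lay lower and 4 (19.05%) higher, with a median of -0.22 and 0 called, so that the lower share was near that of all genes. Laptm5, a lysosomal protein of blood cells, had 1343 and 1323 CPM against 247 and 916 CPM, while Laptm4b had 41.3 and 41.4 CPM against 99.1 and 43.8 CPM. Of 18 genes that sort proteins to the lysosome, 5 (27.8%) lay lower and 3 (16.7%) higher, with a median of -0.24 and 0 called, and the lower share was again near that of all genes. Sort1, the sortilin gene, had 50.004 and 73.0 CPM against 130 and 93.7 CPM.

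**Figure D4:**
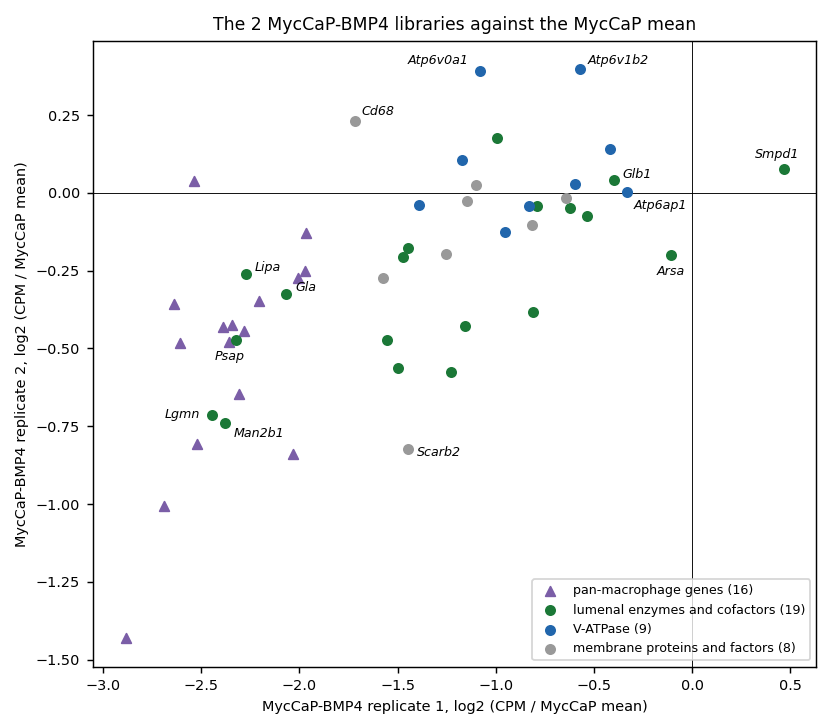
Each point is a gene, with its log2 difference from the MycCaP mean in MycCaP-BMP4 replicate 1 (x axis) and replicate 2 (y axis). Lgmn, Man2b1, Psap, Lipa and Gla lie among the 16 pan-macrophage genes (triangles), the other members lie to the right of them, and both axes share the same MycCaP mean.

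Set beside the pan-macrophage genes, most lysosomal genes were reduced less. The median log2 difference from the MycCaP mean was -2.35 in MycCaP-BMP4 replicate 1 and -0.44 in replicate 2 for the macrophage genes, and -1.12 and -0.09 for the 36 members. In replicate 1, 34 of 36 members lay above the macrophage median, and in replicate 2, 29 did. The median of all genes tested was -0.06 in replicate 1 and -0.02 in replicate 2. Most genes of any kind therefore lay above the macrophage median, and such a place is not particular to the members. Psap was next to the macrophage median, at 0.03 log2 units above it in replicate 1 and -0.04 from it in replicate 2, and Lipa was 0.08 and 0.17 above it. Lgmn and Man2b1 were below it in both, at -0.09 and -0.28 for Lgmn and at -0.03 and -0.30 for Man2b1. At the other end, Smpd1, Arsa and Atp6ap1 were 2.82, 2.24 and 2.02 above it in replicate 1 and 0.51, 0.24 and 0.44 in replicate 2.

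The choice of scale sets the direction for most members. On a scale set by the pan-macrophage genes, the median log2 fold change came to 0.90 for the members and 1.64 for all genes tested. A new scale shifts all genes of a library alike, so it could not change the order of genes within a library. Under that scaling 27 members were higher in both MycCaP-BMP4 libraries (68.9% of all genes were), 1, Lgmn, was lower (4.03%), and edgeR called 0 members, beside 7.85% of all genes higher and 0.163% lower. Lgmn, Man2b1 and Psap had log2 fold changes of -0.18, -0.17 and -0.0041, and Smpd1 had 2.08.

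**Figure D5:**
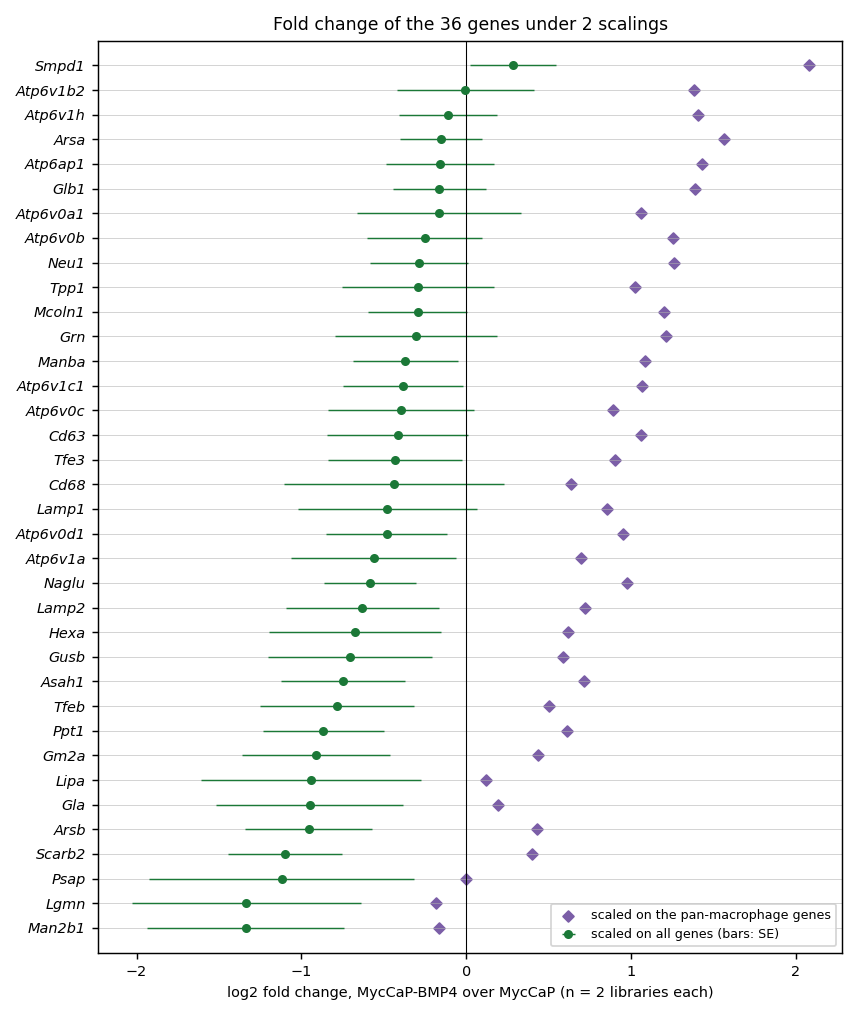
Log2 fold change of each of the 36 genes, MycCaP-BMP4 over MycCaP with 2 libraries each, scaled on all genes (circles, bars are SE) and on the pan-macrophage genes (diamonds). All genes but Smpd1 lie at or left of 0 on the first scale, and all but Lgmn, Man2b1 and Psap lie right of 0 on the second.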

How the data were processed

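HTSeq is named in the submitters' processing notes, beside STAR 2.6.0b, Bowtie2 2.2.3, RSEM and the build GRCm38, and the files have the form of its output. The deposited values are the authors' whole-number counts from poly(A)-selected, strand-specific paired-end libraries, per the labels' protocols. Which annotation and strand setting were used is not given in the sources used here. Of the members, 9 share exon sequence with another counted gene, 8 of them on the opposite strand. Lines naming no gene (14.6% to 19.4% of all counted reads) were left out. Symbols were found for 37607 of 39179 genes. Exon lengths and coordinates came from GENCODE M21 (GRCm38).

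Counts were filtered with filterByExpr (14075 genes left), scaled with TMM and tested with edgeR 4.0.16 (R 4.3.3; quasi-likelihood F test, two-sided, Benjamini-Hochberg adjusted p under 0.05, no covariate). SE is the absolute log2 fold change over the square root of F. CPM uses TMM factors. A check with simulated data was made, but no result here rests on it. It is not evidence of how the test behaves on these libraries. Their MycCaP-BMP4 replicates lay further apart than their MycCaP replicates. Alternatives were other scalings and filters, a replicate block, DESeq2 1.42.0, limma-voom (limma 3.58.1) and each library left out. All members were named, with, from each other lysosomal list, up to 4 genes of smallest p and those needed for subunit comparisons. Galc, Tcirg1, Mitf, Tfec, Cap1, Tmppe, Cdh1, Kit, Ocstamp and the markers at or near 0 were chosen after their values were seen. The members and lists were chosen with earlier results of these data known.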

Additional observations from a re-analysis of the deposited data

How the results depend on the processing

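The counts of called genes depended on the tool, and those of called members did not, except when a library was left out. Across all genes, 0 higher and 0 lower were called in the reported fit. Higher and lower calls numbered 961 and 424 with DESeq2, 784 and 325 with no filter on low counts, 47 and 18 on library size alone, and 1105 and 23 when scaled on the pan-macrophage genes. With 1 library left out, higher calls ran from 0 to 2753, lower calls from 0 to 3000, members called lower from 0 to 26, members lower in all MycCaP-BMP4 libraries from 19 to 34, members higher from 1 to 9, and the members' median from -1.10 to -0.091. The highest counts of calls came from leaving out a MycCaP-BMP4 library, where the spread rests on the MycCaP pair alone. The replicate numbers were not treated as pairs: with the number as a block, 2 genes were called higher and 0 lower, none a member. Same-numbered libraries deviated in opposite directions across genes (r = -0.15), and a block with crossed numbers, chosen after seeing the data, called 497 higher and 192 lower and 0 members.

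Scaled on the pan-macrophage genes, members lower in both MycCaP-BMP4 libraries went from 18 to 1 and members higher from 1 to 27, and the median turned to 0.90. The log2 fold changes of 32 members turned positive: Arsa 1.56, Arsb 0.43, Asah1 0.71, Atp6ap1 1.43, Atp6v0a1 1.06, Atp6v0b 1.25, Atp6v0c 0.89, Atp6v0d1 0.95, Atp6v1a 0.70, Atp6v1b2 1.38, Atp6v1c1 1.07, Atp6v1h 1.40, Cd63 1.06, Cd68 0.64, Gla 0.19, Glb1 1.39, Gm2a 0.44, Grn 1.21, Gusb 0.59, Hexa 0.62, Lamp1 0.85, Lamp2 0.72, Lipa 0.12, Manba 1.09, Mcoln1 1.20, Naglu 0.98, Neu1 1.26, Ppt1 0.61, Scarb2 0.40, Tfe3 0.90, Tfeb 0.50 and Tpp1 1.02. So did those of Atp6ap2 0.63, Atp6v1e1 1.05, Atp6v1g1 1.21, Fuca1 0.69, Idua 0.54, Lamtor2 1.01, Lamtor4 0.69, Sgsh 0.44 and Vps33a 0.92. On library size alone, Arsa (0.025), Atp6ap1 (0.0032), Atp6v1b2 (0.13) and Atp6v1h (0.041) turned positive, and Atp6v1b2 was 0.0057 with DESeq2's size factors and 0.0057 with DESeq2's test. With 1 library left out, the log2 fold change ran from -1.05 to 0.39 for Atp6v0a1, -0.57 to 0.025 for Atp6v0b, -1.15 to 0.10 for Atp6v0c, -0.54 to 0.40 for Atp6v1b2, -0.39 to 0.14 for Atp6v1h, -1.69 to 0.23 for Cd68, -0.37 to 0.039 for Glb1, -1.07 to 0.023 for Tfe3, -0.96 to 0.17 for Tpp1 and -0.035 to 2.26 for Atp6v0d2. Apart from the scaling itself, the cause of these changes was not tested.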
